A study of Gossypium hirsutum with 24 samples.

Results

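The ethylene response factor (ERF) transcription factors of cotton leaves were followed in 66 of the 23972 probe sets of the Affymetrix Cotton GeneChip. The study's table of transcription factors lists 68 ERF probe sets, and 2 of them were left out because they also stand in its table of hormone genes. The 66 probe sets match 43 genes of Gossypium raimondii, a diploid relative of cultivated cotton, and gene names of the form Gorai are the ones that table gives. The table holds probe sets the study selected on the difference between CBW-damaged and control leaves in these same arrays. All CBW minus control values of members below are therefore descriptions and carry no test.

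The plants were Gossypium hirsutum cv. CCRI12 with 6 to 7 leaves. Third-instar larvae of the cotton bollworm (CBW, Helicoverpa armigera) fed on the leaves of damaged plants for 6, 12, 24 or 48 h, and control plants were undamaged and kept under the same conditions. There were 3 CBW and 3 control arrays at each of the 4 times, 24 in all, and each array held RNA pooled from the leaves of 3 plants. The larvae per sample and the bag that held them differ between the study's methods and its sample labels, so neither is used here. Whole leaves were sampled, so a higher signal from more cells of a type and from more RNA per cell cannot be told apart. A single listed leaf marker was measured, a chlorophyll A-B binding protein, and its mean signal in control leaves was 346, 735, 88.5 and 145 at the 4 times. Its CBW minus control log2 differences were 0.60, -0.19, 2.45 and 1.95, so the tissue could hardly be checked from the names at hand. Those names cover only part of the study's annotation, and leaf markers without a higher 48 h signal may be missing from them. The study reports that almost all photosynthesis genes that changed with feeding were lower, so this probe set does not stand for that class.

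ERF proteins carry an AP2/ERF DNA-binding domain. Members of the ERF subfamily typically bind the GCC box in promoters of defence genes, and members of the DREB subfamily bind the dehydration-responsive element. Some activate transcription downstream of ethylene and jasmonate, and others carry an EAR motif and repress it. Roles given below are those known for the Arabidopsis or tomato proteins that the study's annotation names, since roles of the cotton proteins were not measured. That annotation, held here in part, named 32 of the 66 members, and the platform annotation gave a gene symbol for 11. All 32 had a 48 h log2 difference of 1.52 or more, and members it did not name had 1.38 or less where measured. Names and Arabidopsis matches thus follow the 48 h difference, and nothing is read from which members have them. No name or symbol was at hand for 27 members, which are given by Gorai gene. Members are named by gene below, and by brightness where a gene has several probe sets. The heat map pairs each gene with its probe sets.

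Values are MAS5 signals, the linear summaries that the authors deposited, and differences are means of log2 signals, CBW minus control, with a standard error (SE) from 1 limma model of all 24 arrays. Medians of the arrays lay between 358 and 399, and the 20th percentile of signal lay between 106 and 121. Signals under that percentile are called dim below. Of the 66 members, 60 had values at all 4 times, 5 at 3 times and 1 at 12 h alone. A total of 37 have a probe set ID ending in _s_at or _x_at, which marks probes shared with similar transcripts, so that near-identical copies of a gene cannot be separated there.

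Arrays of 1 group differed from each other more in the ERF members than over all probe sets, except among CBW arrays at 48 h. The median log2 range among the 3 control arrays was 0.689, 0.803, 1.02 and 0.515 over the members at the 4 times, against 0.349, 0.429, 0.386 and 0.345 over all probe sets. Among the 3 CBW arrays the members' median range was 0.509, 0.414, 0.337 and 0.202, against 0.377, 0.291, 0.297 and 0.202 over all probe sets. Single control arrays stood apart: control replicate 3 at 24 h was the lowest of its group in 53 of 64 members measured, against 33.9% of all probe sets. Control replicate 3 at 6 h was lowest in 42 of 64 members, against 27.1% of all probe sets. Control replicate 2 at 48 h was lowest in 50 of 64, against 47.8% of all probe sets. Control replicate 1 at 12 h was the highest of its group in 37 of 64 members, where it was so in 37.8% of all probe sets. A CBW array stood apart too, replicate 2 at 12 h, which was lowest in 43 of 64 members, against 25.5% of all probe sets. What set these plants apart was not tested, and values without these control arrays are given where they matter.

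Signals of most ERF members were higher in CBW-damaged leaves at each time. At 6 h, 44 of 64 members were called higher and 7 lower at an adjusted p of 0.05 or less from limma, where 26.1% and 36.5% of all probe sets tested were called so. At 12 h, 39 of 64 were called higher and 3 lower, beside 19.9% and 24.7% of all probe sets. At 24 h, 47 were called higher and 3 lower of 64, beside 20% and 29.3%. At 48 h, 51 were called higher and 7 lower of 64, beside 22.4% and 22.6%. These counts describe a list that was chosen on this contrast, and nothing is read from them.

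The median log2 difference of the members was 1.10, 0.98, 1.43 and 1.45 at the 4 times in order. Over all probe sets tested it was -0.13, -0.04, -0.08 and 0.00 at those times. A difference of at least 4-fold, a log2 difference of 2 or more, was reached by 15, 10, 16 and 24 members, where 5.52%, 3.78%, 4.24% and 4.44% of all probe sets reached it. With signals below the 20th percentile of an array raised to it, these counts were 11, 6, 10 and 15. In all, 30 members of 27 genes reached 4-fold at 1 time or more, and 6 reached it at all 4 times. Of the 60 members with values throughout, the largest difference came first in 11, at 12 h in 6, at 24 h in 14 and last in 29. The 3 CBW arrays lay above the 3 control arrays in 47, 42, 46 and 53 of 64 members at the 4 times, where 28.0%, 23.5%, 23.6% and 31.1% of all probe sets did. They lay below in 6, 2, 3 and 8 members, where 37.8%, 28.6%, 33.6% and 31.3% of all probe sets did. In 22 members they lay above at all 4 times, in 1 member they lay below at all 4 times, and in 9 members they lay above at 1 time and below at another. Shares of all probe sets are not given for these counts over several times, nor for the members that reached 4-fold over the times. Nothing is read from them.

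**Figure D1:**
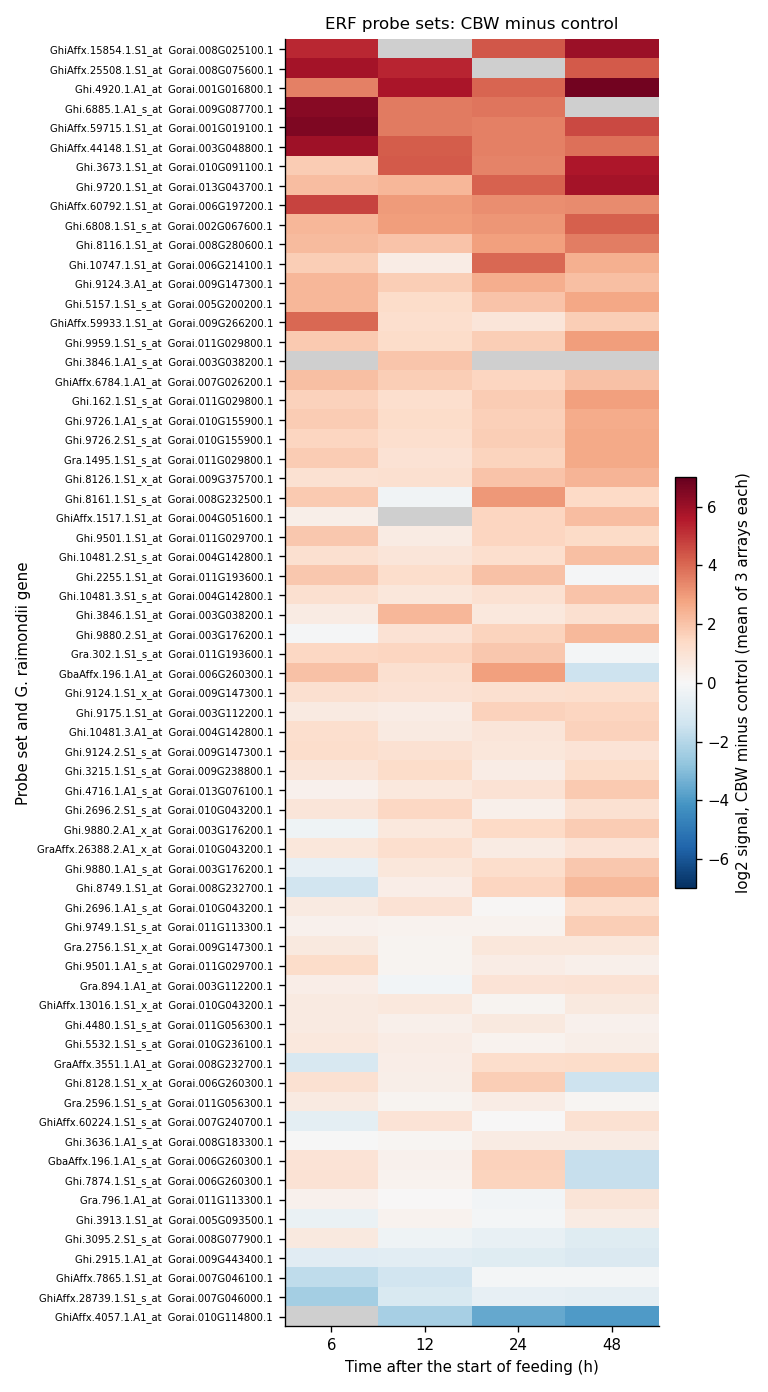
Log2 signal of CBW-damaged minus control leaves (colour, means of 3 arrays each) for the 66 ERF probe sets (rows, ordered by their mean difference) at 6, 12, 24 and 48 h (columns), with grey where no value was given. Most rows are higher in CBW-damaged leaves, the top 10 by 1.77 or more on the log2 scale wherever measured, and the 4 rows of Gorai.006G260300.1 turn from higher to lower at 48 h.

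The other large families of the same table, also chosen on these arrays, are given for scale. The median log2 difference at 6 h was 2.07 over 52 WRKY probe sets, 1.64 over 31 NAC probe sets and 0.02 over 39 MYB probe sets. At 48 h it was 1.93 over 50 WRKY, 1.64 over 28 NAC and 0.16 over 36 MYB probe sets. Differences between the families were not tested.

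The 4 members matched to the DREB-type proteins CBF1 and RAP2.9 had higher mean log2 signals in CBW-damaged leaves at every time, with overlapping arrays in 1 of them at 12 h. Matches were at hand only for members with high 48 h differences, so this describes these members and not their class. Gorai.006G197200.1, named DRE-binding protein 3b and matched to Arabidopsis CBF1, an activator of cold-responsive genes, had signals of 24.1, 28.6 and 24.8 in control leaves at 6 h and of 174, 1028 and 1773 in CBW-damaged leaves. CBW replicate 1 was the low array of its group, and all 3 lay above the control arrays. The log2 difference was 4.73 (SE 0.542, n = 3 against 3), or 5.71 without that array. At the later times it was 2.99, 3.23 and 3.31, with control signals between 22.9 and 36.3 from 12 h on. With dim signals raised to the 20th percentile these 4 differences were 2.58, 1.17, 1.09 and 1.36. The other member matched to CBF1, Gorai.008G280600.1 (named DREB1-like), was above the dim range in 11 of 12 control arrays.

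Gorai.008G280600.1 gave 1292, 1836 and 367 in control and 2424, 5270 and 7150 in CBW-damaged leaves at 6 h. At 24 h it gave 2857, 1316 and 93.9 in control and 4723, 5781 and 5068 in CBW-damaged leaves. The CBW arrays were close to each other at 24 h, while control replicate 3 lay far below its group. The log2 difference at 24 h was 2.87 (SE 0.951, n = 3 against 3) and 1.42 without that array. At 48 h the control arrays were even, at 444, 368 and 617, and the CBW arrays gave 6225, 5112 and 5744. The difference there was 3.61, and at 12 h the groups overlapped with a difference of 1.99.

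The 2 members matched to Arabidopsis RAP2.9, a DREB-type protein, had their largest differences at 48 h. Gorai.001G016800.1 gave 642, 473 and 197 in control and 3562, 6169 and 4326 in CBW-damaged leaves at 6 h. At 48 h it gave 14.1, 25.6 and 35.4 in control and 3558, 1659 and 2764 in CBW-damaged leaves. All CBW arrays were far above the dim range at both times, and all control arrays were dim at 48 h. Log2 differences at the 4 times were 3.54, 5.70, 4.08 and 6.76 (SE 0.922 each, n = 3 against 3), the last being the largest of any member at any time. With dim signals raised to the 20th percentile the value at 48 h was 4.42.

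Control arrays of Gorai.001G016800.1 were uneven at 12 h, with 253, 12.9 and 65.1, and at 24 h, with 504, 134 and 22.8. The 12 h difference was 6.74 without control replicate 1 and 4.59 without control replicate 2. The 24 h difference was 5.15 without control replicate 1 and 2.91 without control replicate 3. Gorai.010G091100.1 had the same order of control arrays at 12 h and 24 h, at a higher level. Its control signals were 2268, 2868 and 838 at 6 h and 94.3, 85.0 and 159 at 48 h, and its CBW signals were 6538, 6176 and 5363 at 6 h and 6630, 4325 and 5614 at 48 h. The groups did not overlap at either time, and the log2 differences were 1.77 and 5.65 (SE 0.932 each). Its 12 h difference of 4.31 was 5.65 without control replicate 1 and 3.29 without control replicate 2, and its 24 h difference of 3.49 was 2.26 without control replicate 3.

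**Figure D2:**
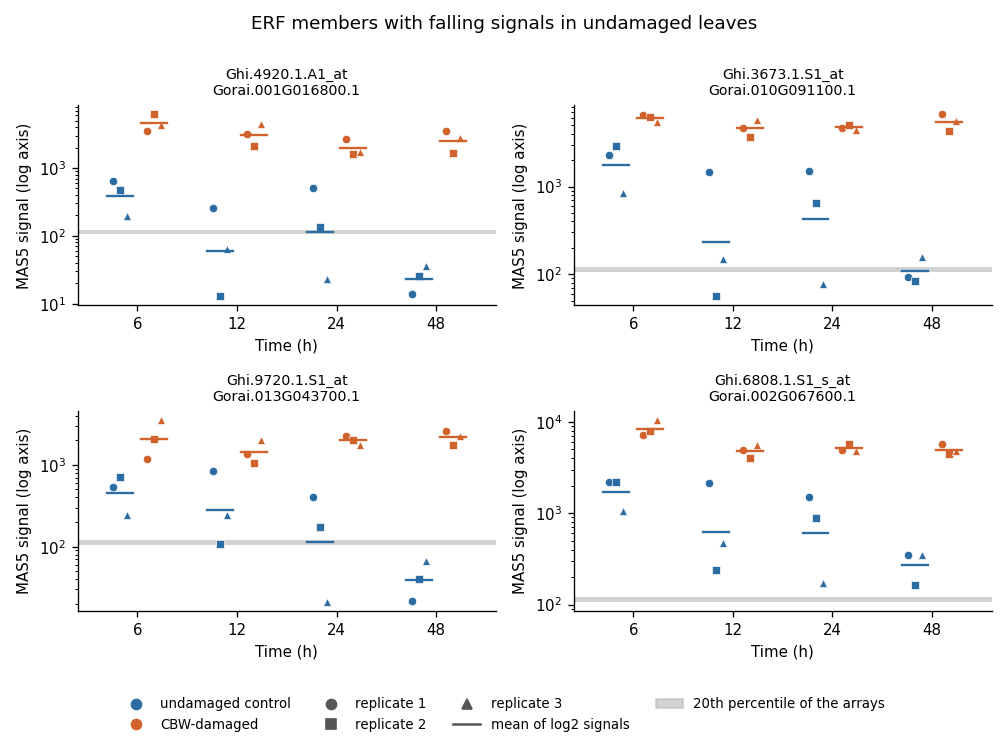
MAS5 signals (log axis) of the 3 control arrays (blue) and 3 CBW arrays (orange) at each time for 4 ERF probe sets, with bars at the mean of log2 signals, marker shapes for replicate numbers and a grey band for the 20th percentile of the arrays. Mean control signals are lowest at 48 h in all 4 panels, and the 3 control arrays at 12 h and 24 h spread over a wide range.

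The members matched to the Arabidopsis repressors ERF4 and ERF9 had higher mean log2 signals in CBW-damaged leaves at every time. This too describes members with a match at hand, all of them high at 48 h, and not the repressors as a class. Gorai.002G067600.1, named ERF-1 of G. hirsutum and matched to Arabidopsis ERF4, an EAR-motif repressor, gave 2213, 2167 and 1052 in control and 7208, 7998 and 10384 in CBW-damaged leaves at 6 h. At 48 h it gave 346, 163 and 344 in control and 5700, 4460 and 4798 in CBW-damaged leaves. The groups lay apart at both times, and the control signals at 48 h were a fraction of those at 6 h. Its log2 differences at the 4 times were 2.30, 2.95, 3.06 and 4.21 (SE 0.667 each). The 24 h value was 2.15 without control replicate 3. The other ERF4-matched member, Gorai.009G375700.1, showed smaller differences of 1.09, 1.13, 2.00 and 2.40 at the 4 times (SE 0.428 each).

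Arabidopsis ERF9, another repressor, was the listed match of 6 members of 3 genes. Log2 differences lay between 1.02 and 2.91, and the arrays of the groups overlapped in 1 of the 6 at 12 h and in none elsewhere. All 6 had their largest difference at 48 h, from which nothing is read, since matches were at hand only for members high at that time. The bright probe set of Gorai.010G155900.1, the brightest of the 6, gave 4765, 5356 and 2216 in control and 10389, 10537 and 12303 in CBW-damaged leaves at 6 h. At 48 h it gave 1983, 985 and 2120 in control and 10333, 9950 and 10498 in CBW-damaged leaves. CBW signals of this gene thus kept within a narrow band while control signals were lower at 48 h. Its log2 differences were 1.52, 1.19, 1.73 and 2.67 (SE 0.397 each). The 3 probe sets of Gorai.011G029800.1 moved alike, with 1.61 to 1.81, 1.02 to 1.31, 1.58 to 1.76 and 2.65 to 2.91 at the 4 times.

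Members related to activator-type ERFs included Gorai.006G214100.1 and Gorai.003G112200.1. Gorai.006G214100.1, matched to Arabidopsis ERF1A, a GCC box activator, gave 369, 762 and 376 in control and 1907, 1523 and 1348 in CBW-damaged leaves at 6 h. At 12 h the groups overlapped, with 1386, 649 and 1164 in control and 1636, 1042 and 1802 in CBW-damaged leaves. At 24 h they lay far apart, with 314, 254 and 61.0 in control and 3525, 2411 and 2311 in CBW-damaged leaves. The gap was smallest at 12 h, where the groups overlapped, and widest at 24 h. Log2 differences were 1.74, 0.52, 3.99 and 2.48 at the 4 times (SE 0.469 each), and 3.26 at 24 h without control replicate 3.

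The bright probe set of Gorai.003G112200.1, matched to Arabidopsis ERF5, an activator of defence genes, had log2 differences of 0.63, 0.53, 1.62 and 1.52 over the 4 times (SE 0.390 each). Its 3 control signals at 24 h were 4319, 2978 and 814, and the CBW signals were 7025, 6501 and 6725. The low control array was again replicate 3, without which the 24 h difference was 0.91. The dim probe set of this gene had 0.45, -0.18, 0.94 and 1.02 (SE 0.317 each), and its groups overlapped at 6 h and 12 h. Neither probe set was called at 6 h or 12 h.

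Gorai.013G043700.1 is named redox responsive transcription factor 1, while its listed Arabidopsis match is RAP2.3, a member of the group of ERFs whose stability depends on oxygen. It gave 531, 715 and 243 in control and 1172, 2089 and 3511 in CBW leaves at 6 h, and 21.5, 40.7 and 67.7 in control and 2596, 1765 and 2227 in CBW-damaged leaves at 48 h. Control signals were dim at 48 h and CBW signals were not. Log2 differences were 2.18, 2.35, 4.14 and 5.80 at the 4 times (SE 0.822 each). It was 1.66 at 12 h without control replicate 2 and 2.92 at 24 h without control replicate 3.

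Gorai.009G147300.1 has 4 probe sets, 1 of them named JERF1, after a tomato ERF responsive to jasmonate and ethylene. Its probe sets gave the same direction and unequal sizes. The one named JERF1 had log2 differences of 2.31, 1.70, 2.55 and 2.10 at the 4 times (SE 0.40 each), and the dimmest had 0.70, 0.17, 0.82 and 0.81 (SE 0.179 each). The other two lay between 0.79 and 1.24. The 12 h difference of the JERF1 probe set was 0.40 with dim signals raised to the 20th percentile.

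Members that the annotation names only as ethylene-responsive factors split by time. Gorai.008G025100.1, named ethylene-responsive transcription factor 10, gave 10.1, 5.69 and 3.11 in control and 97.6, 258 and 434 in CBW leaves at 6 h, and 8.53, 7.14 and 6.44 in control and 556, 368 and 517 in CBW-damaged leaves at 48 h. The control arrays were dim at every time measured. Where measured, the log2 differences were 5.30, 4.33 and 6.01 (SE 0.484 each), the first of them 5.89 without CBW replicate 1, and 1.02, 0.18 and 2.00 with dim signals raised to the 20th percentile. The size of the difference thus rests on how far below that percentile the control signals are taken to lie.

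The 3 probe sets of Gorai.003G176200.1, named ethylene-responsive transcription factor, overlapped between groups at 6 h, with log2 differences of -0.58 to -0.06. Later they were 0.76 to 1.01, then 1.26 to 1.55 and finally 1.80 to 2.28. The brightest of them gave 1429, 950 and 1858 in control and 5103, 4422 and 4720 in CBW-damaged leaves at 48 h. At 24 h its difference of 1.38 was 0.61 without control replicate 3. The bright probe set of Gorai.008G232700.1, named ethylene-responsive transcription factor 11, went from -1.34 at 6 h to 2.25 at 48 h (SE 0.479 each), and its groups overlapped at 6 h.

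The members with the largest differences at 6 h were dim in undamaged leaves. Gorai.001G019100.1, named as an AP2/ERF domain protein, gave 18.5, 17.5 and 15.5 in control and 1172, 1502 and 2399 in CBW-damaged leaves at 6 h. At 24 h the CBW signals were 218, 240 and 175, and control signals were still 19.2, 18.6 and 16.2. The early signals of damaged leaves were thus several times the later ones, over a control level that hardly moved. Its log2 differences were 6.56, 3.62, 3.54 and 4.64 at the 4 times (SE 0.403 each), and 3.83, 1.07, 0.81 and 1.80 with dim signals raised to the 20th percentile.

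Gorai.003G048800.1, named as an integrase-type DNA-binding protein, the annotation's term for proteins of this fold, gave 23.4, 46.4 and 31.3 in control and 1975, 1988 and 1894 in CBW-damaged leaves at 6 h. At 48 h the CBW signals were 540, 399 and 422. Its log2 difference was 5.91, 4.26, 3.52 and 3.86 at the 4 times (SE 0.360 each), and the 6 h value was 4.10 with dim signals raised. The damaged leaves were closest to each other at the earliest time, where their signals were also highest.

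Gorai.008G075600.1 gave 5.32, 4.58 and 6.6 in control and 220, 308 and 437 in damaged leaves at 6 h, which differ by a log2 value of 5.83 (SE 0.305). At 48 h all 6 of its signals were dim, with 4.74, 5.91 and 2.74 in control and 84.0, 83.2 and 85.5 in CBW-damaged leaves. The 48 h difference of 4.31 was 0.00 with dim signals raised to the 20th percentile. Gorai.009G087700.1 gave 7.02, 11.8 and 5.93 in control and 189, 1082 and 1439 in damaged leaves at 6 h, which differ by a log2 value of 6.4 (SE 0.593), or 7.30 without CBW replicate 1. At 24 h its difference was 3.75, and -0.13 with dim signals raised, since its CBW signals of 106, 97.5 and 91.3 were dim too.

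Gorai.009G266200.1 had a control level that was higher at 12 h than at 6 h. Its control signals were 35.5, 62.7 and 50.1 at 6 h and 109, 293 and 231 at 12 h. CBW signals were 960, 1173 and 440 at 6 h and 505, 371 and 470 at 12 h. Log2 differences were 4.04 and 1.19 (SE 0.376 each), and the groups overlapped at 24 h.

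**Figure D3:**
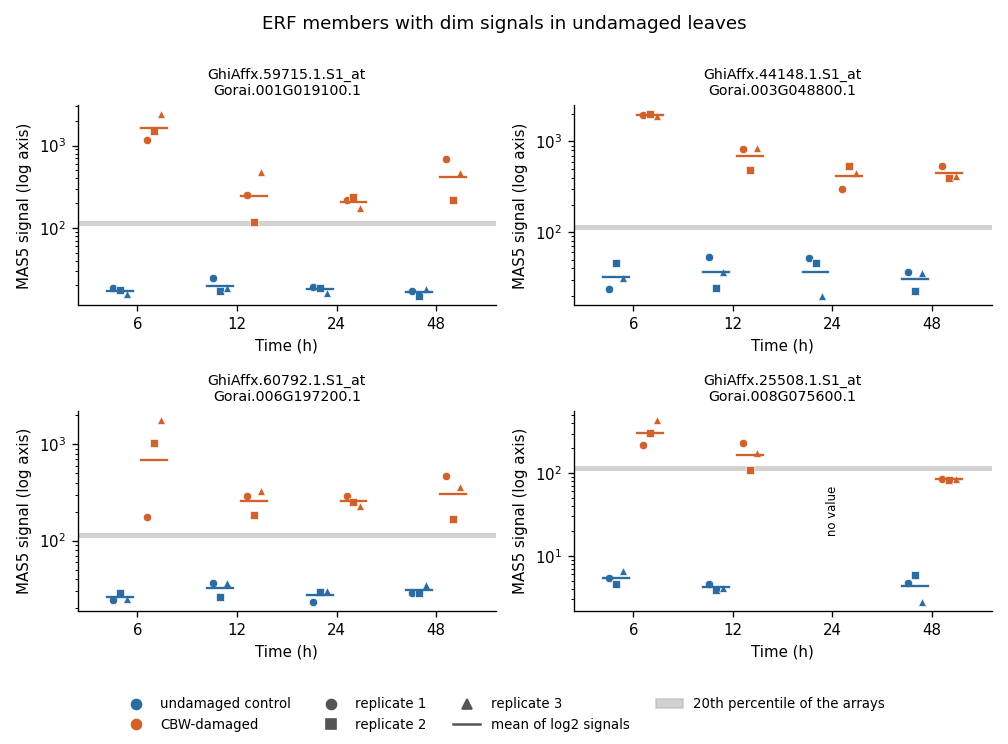
MAS5 signals (log axis) of the 3 control arrays (blue) and 3 CBW arrays (orange) at each time for 4 ERF probe sets, with bars at the mean of log2 signals and a grey band for the 20th percentile of the arrays. Control signals lie below the band at every time measured, and mean CBW signals are highest at 6 h in all 4 panels.

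The study's annotation as held here named only members with high 48 h differences, so the members with the largest falls have no name in it. Gorai.010G114800.1 gave 201, 52.1 and 293 in control and 12.0, 12.4 and 12.3 in CBW-damaged leaves at 24 h. At 48 h it gave 98.7, 869 and 70.1 in control and 13.4, 11.2 and 10.5 in CBW-damaged leaves. The CBW arrays were dim and even, and the control arrays spread widely around the dim limit. The log2 difference was -3.57 at 24 h and -3.96 at 48 h (SE 0.958 each), or -2.84 at 48 h without control replicate 2, and -0.82 and -0.95 with dim signals raised.

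Gorai.007G046000.1 (LOC107922990) and Gorai.007G046100.1, whose Gorai identifiers are consecutive, were lower at 6 h. Gorai.007G046000.1 gave 1288, 1579 and 1493 in control and 478, 219 and 202 in damaged leaves at 6 h, which differ by a log2 value of -2.39 (SE 0.353). Gorai.007G046100.1 gave 1452, 1904 and 1961 in control and 832, 422 and 389 in CBW-damaged leaves, a log2 difference of -1.77 (SE 0.354). In both, CBW replicate 1 was the highest of its group and still lay below all control arrays. At 48 h their differences were -0.62 and -0.14, and the groups overlapped.

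Gorai.009G443400.1 was the member with CBW arrays below control arrays at all 4 times. It gave 912, 929 and 916 in control and 547, 569 and 496 in CBW-damaged leaves at 6 h, with log2 differences of -0.78, -0.74, -0.86 and -1.01 at the 4 times (SE 0.126 each).

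The 4 probe sets of Gorai.006G260300.1 lay above the control level early and at 24 h, and under it at 48 h. One of the 3 bright probe sets gave 1201, 1336 and 769 in control and 3817, 2952 and 3217 in CBW-damaged leaves at 24 h. At 48 h it gave 2661, 2017 and 2799 in control and 936, 686 and 794 in CBW-damaged leaves. The groups lay apart at both times and in opposite order. Over the 4 probe sets the log2 differences in order of time were 0.97 to 2.03, 0.27 to 1.11, 1.58 to 2.88 and -1.63 to -1.45. The dim probe set had control signals of 136, 94.8 and 156 at 48 h, and its difference there was -0.21 with dim signals raised. The 4 probe sets target 1 gene, so they are not separate pieces of evidence.

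**Figure D4:**
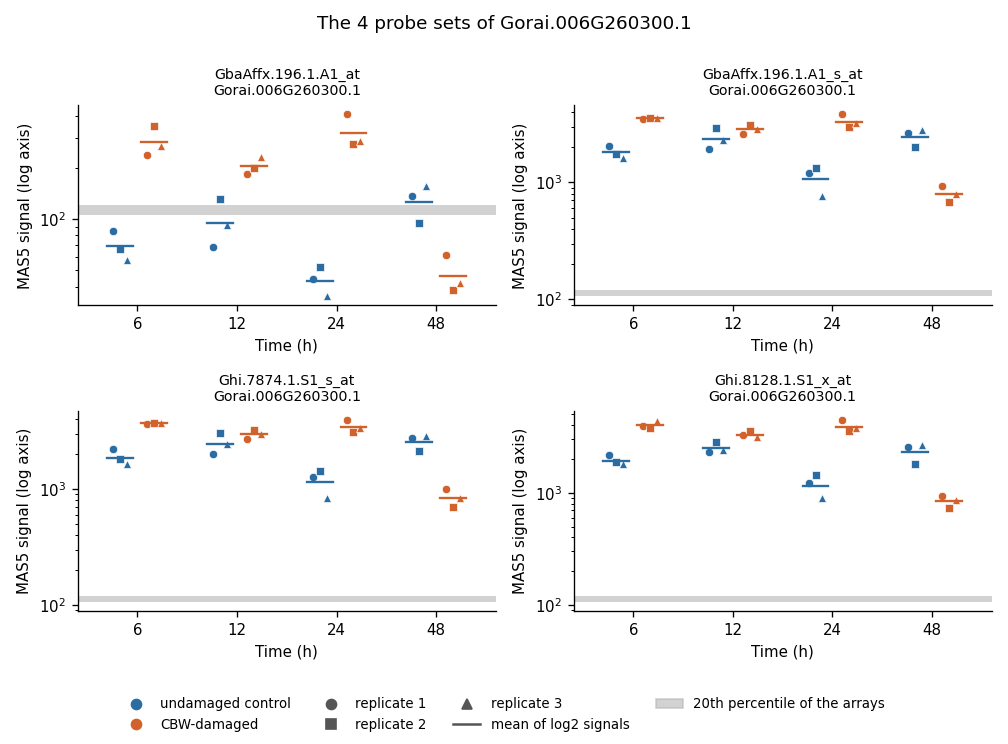
MAS5 signals (log axis) of the 3 control arrays (blue) and 3 CBW arrays (orange) at each time for the 4 probe sets of Gorai.006G260300.1, with bars at the mean of log2 signals and a grey band for the 20th percentile of the arrays. In every panel the CBW arrays lie above the control arrays at 6 h and 24 h and below them at 48 h.

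Another 5 members lay above control at 1 time and below at another. The brighter probe set of Gorai.011G193600.1 lay above control at its first 3 times, with log2 differences of 1.44, 1.48 and 1.86, and gave -0.16 at 48 h (SE 0.198 each). The 48 h difference was not called, and the highest CBW signal of 698.74 lay just under the lowest control signal of 699.56. The gene's other probe set overlapped between groups at 48 h, with -0.07. Gorai.007G240700.1 (LOC107898106) gave 1818, 2005 and 1691 in control and 1318, 1182 and 1009 in CBW-damaged leaves at 6 h. At 12 h it gave 1141, 1434 and 1169 in control and 2031, 2471 and 2800 in CBW-damaged leaves. Its log2 difference thus went from -0.66 to 0.96, 0.01 and 1.05 over the 4 times (SE 0.180 each).

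The dim probe set of Gorai.008G232700.1, the gene named ethylene-responsive transcription factor 11, had a log2 difference of -1.13 at 6 h, and of 1.21 and 1.29 at the last 2 times (SE 0.363 each). Most of its signals were dim, and both later differences were near 0 with dim signals raised, at -0.09 and 0.00. Gorai.005G093500.1 went from -0.45 at 6 h to 0.58 at 48 h, and Gorai.008G077900.1 from 0.66 at 6 h to -0.87 at 48 h. These last changes were small beside those of the members above.

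Probe sets of 1 gene did not always give like values. The bright probe set of Gorai.011G029700.1 had log2 differences of 1.51 at 24 h and 1.35 at 48 h, against 0.54 and 0.38 for the dim one, and the 2 probe sets of Gorai.011G113300.1 had 1.71 and 0.93 at 48 h. The 4 probe sets of Gorai.010G043200.1 had 0.61 to 0.82, 0.72 to 1.44, 0.06 to 0.56 and 0.66 to 1.18 at the 4 times. Their groups overlapped in all 4 at 24 h and in none at the other times. The 3 probe sets of Gorai.004G142800.1, named as an integrase-type DNA-binding protein, had 1.10 to 1.15, 0.65 to 0.84, 0.85 to 1.19 and 1.6 to 2.10.

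The smallest of the members' largest differences were 0.58 in Gorai.005G093500.1 and 0.60 in Gorai.008G183300.1, which mark the lower edge of the list. Of the 2 ERF probe sets left out for standing in the hormone table, Gorai.010G156600.1 had 2.26, 2.48, 2.06 and 1.64 at the 4 times, and Gorai.011G173000.1 had a value at 24 h alone, 4.45. ERF probe sets that the study's table does not list could not be picked out here, so values beyond the edge are not given.

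Undamaged leaves themselves changed over the time course, and this contrast was tested. The plants were grown under a daily cycle of light and dark, and the study's methods give no clock time of sampling. Hours elapsed and time of day therefore cannot be told apart. The same control arrays took part in the choice of the members, and a low control signal makes a CBW minus control difference larger, so these tests are not fully independent of the choice. Between 6 h and 12 h, 15 of 62 members rose and 15 fell at an adjusted p of 0.05 or less from limma, where 19.9% of all probe sets tested rose and 23.2% fell. Between 12 h and 24 h, 7 of 62 rose and 13 fell, where 20.2% and 18.4% of all probe sets did. The RAP2.9-matched members fell most in the first step, Gorai.010G091100.1 by 2.93 (limma adjusted p = 0.0164) and Gorai.001G016800.1 by 2.71 (limma adjusted p = 0.0233). Both calls were lost without control replicate 2 at 12 h, where the falls were -1.91 and -1.61, and without control replicate 2 at 6 h. The first was lost also without control replicate 3 at 12 h and the second without control replicate 1 at 6 h. Without control replicate 1 at 12 h the differences were -4.27 and -3.76. The number that fell between 6 h and 12 h dropped to 5 without control replicate 2 at 6 h, to 7 without control replicate 3 at 12 h and to 9 without control replicate 2 at 12 h. The number that rose between 12 h and 24 h was 12 without control replicate 3 at 24 h.

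A total of 12 members of 11 genes changed in both of these steps, each in opposite directions, with 7 highest and 5 lowest at 12 h. The share of all probe sets that changed in both is not given here. Both steps use the 12 h control arrays, which favours opposite directions, so nothing is read from this count. Gorai.008G232500.1 (LOC107939902) had control signals of 173, 622 and 317 at 6 h. These were 2314, 972 and 1260 at 12 h, then 272, 260 and 96.2 at 24 h. The 12 h arrays lay above those of both neighbouring times. It rose by 2.13 to 12 h (SE 0.510, adjusted p = 0.00235 from limma) and fell by 2.90 to 24 h (adjusted p = 0.000183). In CBW-damaged leaves at 12 h its signals were 1451, 994 and 1180, so the groups overlapped there.

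The bright probe set of Gorai.011G029700.1 had control signals of 511, 431 and 343 at 6 h. They were 1822, 998 and 1564 at 12 h, then 261, 297 and 335 at 24 h. It rose by 1.74 (SE 0.250, limma adjusted p = 1.53e-05) and then fell by 2.26 (limma adjusted p = 1.13e-06), with no overlap between 12 h and either neighbour. Gorai.007G046100.1 went the other way, with control signals of 289, 447 and 177 at 12 h between 1452, 1904 and 1961 at 6 h and 1267, 1433 and 613 at 24 h. It fell by 2.63 (SE 0.354, limma adjusted p = 7.3e-06) and rose by 1.87 (limma adjusted p = 0.00037). Gorai.006G214100.1, the ERF1A-matched member, fell by 2.58 between 12 h and 24 h (SE 0.469, limma adjusted p = 0.000249), and by 1.85 without control replicate 3 at 24 h, where it still passed the test. Gorai.009G266200.1 rose by 2.02 between 6 h and 12 h (SE 0.376, limma adjusted p = 0.000253) and fell by 1.14 to 24 h (limma adjusted p = 0.0226). The second call was lost without control replicate 2 or 3 at 12 h and without control replicate 1 or 3 at 24 h, and both were lost with dim signals raised, at 0.81 and -0.73.

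**Figure D5:**
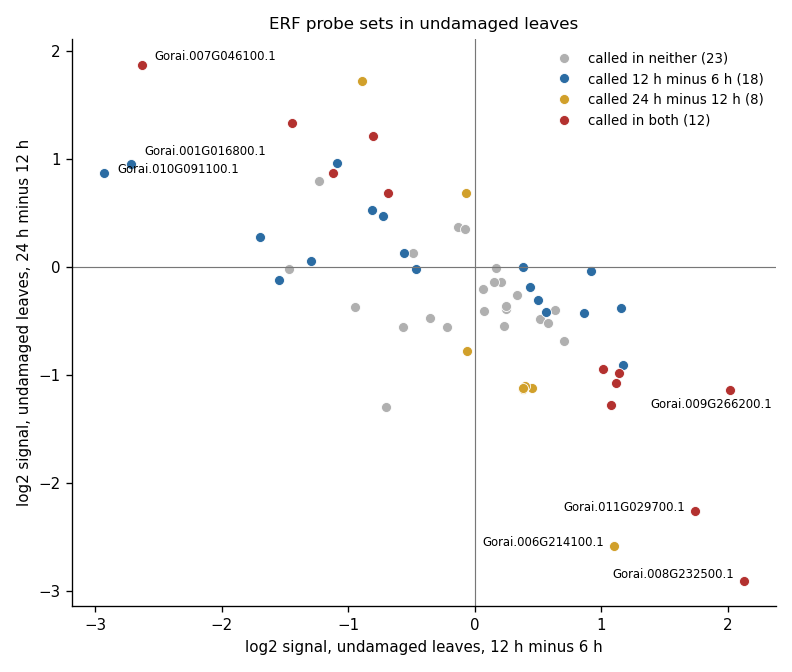
Log2 differences of undamaged leaves, 12 h minus 6 h (x axis) and 24 h minus 12 h (y axis), for the ERF probe sets measured at all 3 times, coloured by whether limma called them in neither step, in 1 or in both (adjusted p of 0.05 or less). The 12 members called in both lie in the upper left and lower right; both axes use the 12 h arrays, so the slant of the points is not a result.

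Between 24 h and 48 h, 4 of 63 members rose and 0 fell, where 0.199% of all probe sets rose and 0.171% fell. At an unadjusted p under 0.05 from limma, 7 members rose and 13 fell, where 2216 of 14071 probe sets tested changed in either direction. Without control replicate 3 at 24 h, 5 members fell at the adjusted threshold, and the share of all probe sets in that fit is not given here. The 4 are the probe sets of Gorai.006G260300.1, which rose by 0.99 to 1.54 (limma adjusted p = 0.0131 for each), and none was called without control replicate 1 or without control replicate 3 at 48 h. The same 4 fell by 1.10 to 1.13 between 12 h and 24 h (largest limma adjusted p = 0.00186). With dim signals raised, the dim probe set passed the test in neither step, at 0.20 and -0.01. The turn of this gene at 48 h came with a rise in control leaves and with lower signals in damaged ones, where CBW arrays at 48 h minus 6 h gave -2.61 to -2.14.

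Over the whole course, a contrast added after the data were seen, 7 of 63 members rose and 19 fell in undamaged leaves from 6 h to 48 h, where 13.4% and 17.9% of all probe sets did. The members' median difference was -0.38, against -0.07 over all probe sets. In CBW-damaged leaves the members' median from 6 h to 48 h was -0.10. Gorai.001G016800.1 fell by 4.06 in undamaged leaves (SE 0.922, limma adjusted p = 0.00311), and its CBW arrays differed by -0.85. Gorai.010G091100.1 fell by 4.02 (SE 0.932, limma adjusted p = 0.0036), with -0.14 in CBW-damaged leaves. Gorai.013G043700.1 fell by 3.54 (SE 0.822, limma adjusted p = 0.00366), with 0.08 in CBW-damaged leaves. Gorai.002G067600.1 fell by 2.68 (SE 0.667, limma adjusted p = 0.00586), with -0.77 in CBW-damaged leaves. In these 4 members the wider gap at 48 h thus came with lower control signals. Gorai.008G280600.1, with -1.04 in undamaged leaves, did not pass the test (limma adjusted p = 0.424).

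Genes upstream of the ERFs were read from the same hormone table, which was also chosen on these arrays. Of the probe sets listed under ethylene biosynthesis, 11 of 16 measured were called higher and 3 lower at 6 h, where 26.1% and 36.5% of all probe sets were. At 12 h these were 6 and 5 of 16, beside 19.9% and 24.7% of all probe sets. At 24 h they were 9 and 5 of 15, beside 20% and 29.3%, and at 48 h 8 and 5 of 14, beside 22.4% and 22.6%. Gorai.008G250100.1, an ACC synthase, the enzyme that makes the ethylene precursor, had a mean signal of 85.7 in control and 1866 in damaged leaves at 6 h, which differ by a log2 value of 4.62 (SE 0.479), and 3.25 at 48 h. Of the 15 listed under ethylene signalling other than the ERFs, 8, 11, 10 and 6 were called higher and 3, 2, 3 and 4 lower at the 4 times, beside the same shares of all probe sets, with 14 measured at 48 h. Their median log2 difference was 0.61, 0.75, 1.28 and 0.02. Gorai.004G227800.1, an EIN3 family protein, the family that activates ERF genes in Arabidopsis, has 3 probe sets. The one with that name had log2 differences of 1.34, 1.28, 1.93 and 1.48 at the 4 times (SE 0.186 each). The others had 0.26 each at 6 h, where their groups overlapped, and 0.55 to 0.82 later.

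Classes of genes whose promoters carry GCC boxes in Arabidopsis or tobacco could be named for 6 probe sets, from rows of a table that the study also drew from these arrays. The ERF members named in the rows at hand all had high 48 h differences. A gene of these classes that was unchanged or lower may thus be missing, and nothing is read from the counts that follow. All 6 were called higher at 6 h, 12 h and 48 h, and all 4 with values were called higher at 24 h, where 26.1%, 19.9%, 20% and 22.4% of all probe sets were called higher at 6, 12, 24 and 48 h. The median log2 difference of these probe sets was 2.55, 2.93, 3.14 and 2.39. A chitinase had log2 differences of 5.62, 3.79, 3.16 and 4.38 at the 4 times (SE 0.317 each), and a thaumatin family protein had 4.20, 5.57, 4.19 and 4.01 (SE 0.387 each). Smaller ones were those of a class I chitinase, with 1.30, 2.61, 2.27 and 1.67 (SE 0.359 each), and of a glucan endo-beta-glucosidase, with 0.88 at 6 h (SE 0.194). Whether ERF members act on these genes was not tested.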

How the data were processed

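The signal intensities analysed were deposited by the authors, who computed them with MAS5 on a linear scale from Affymetrix Cotton GeneChip scans. The scaling target and the rule by which a probe set has values at all 6 arrays of a time or at none are not given in the sources used here. Of 23972 probe sets, 15615 had values at 1 time or more. The depth of an array has no counterpart to read counts, and 3 arrays per group limit the precision. Intensities were taken to log2 and fitted with limma 3.58.1 in R 4.3.3 as 8 group means over 24 arrays, with empirical Bayes moderation, and p-values were adjusted by the Benjamini-Hochberg method over all probe sets tested in a contrast. The fit was tested on simulated data. Replicates are pools of 3 plants grown in 1 pot, with 3 replicate treatments per time in the study's methods, and groups follow the sample titles.

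Members are ERF entries of the study's table of transcription factors less those in its hormone table. Members, lists and the rule for named members were chosen with earlier results of these data known. Named were the 14 largest differences without overlap between arrays, at most 1 per gene, the 6 largest falls, genes with 3 or more probe sets, members above at 1 time and below at another, the 4 largest changes called in each of 3 undamaged contrasts, and the 2 smallest members. Members matched to ERF5, ERF9, the second ERF4-like member, ethylene-responsive factor 11 and the ethylene and GCC box probe sets were named for their annotation, after their values were seen. The held copy of the study's annotation table has 975 rows. Alternatives were quantile or median scaling, a floor at the 20th percentile, dim probe sets left out, an intensity trend, a replicate block, the arrays of 1 time alone, and leaving out each of the 24 arrays. No sequences were analysed here.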

Additional observations from a re-analysis of the deposited data

Results flagged for a closer look

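A total of 9 members, of 6 genes, had all CBW arrays above control at 1 time or more and all below at another. The share of all probe sets that did so is not given here, so the number is a description. The difference between times was not tested, since the members were chosen on this contrast. In Gorai.006G260300.1, the dim probe set had log2 differences of 2.03, 1.11 and 2.88 at 6, 12 and 24 h and -1.45 at 48 h. A bright probe set of that gene had 1.05, 0.39 and 1.74 at those times and -1.46 at 48 h. Another had 0.99 and 1.58 at 6 and 24 h and -1.60 at 48 h, and the last of the 4 had 0.97 and 1.63 at 6 and 24 h and -1.63 at 48 h. The brighter probe set of Gorai.011G193600.1 had 1.44, 1.48 and 1.86 at 6, 12 and 24 h and -0.16 at 48 h. That last value was not called, and the gene's other probe set overlapped between groups at 48 h, with -0.07. Gorai.008G077900.1 had 0.66 at 6 h and -0.87 at 48 h. In the other order, the dim probe set of Gorai.008G232700.1 had -1.13 at 6 h and 1.21 and 1.29 at 24 and 48 h, Gorai.007G240700.1 had -0.66 at 6 h and 0.96 and 1.05 at 12 and 48 h, and Gorai.005G093500.1 had -0.45 at 6 h and 0.58 at 48 h.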

How the results depend on the processing

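Of the named members' values for CBW minus control under the alternatives, which carry no test, 5512 stayed within the spread between replicates, 39 moved further and 5 turned. Of those for undamaged leaves, 5097 kept their side of the threshold, 113 lost a call and 50 gained one, and no called value changed sign. With signals below the 20th percentile raised to it, the number of members that rose in undamaged leaves between 12 h and 24 h was 4 in place of 7, and 17 positive CBW minus control log2 differences of all members turned negative, 9 of them called. Of the named members' called differences 5 turned: those of the dimmest probe sets of Gorai.003G176200.1 and Gorai.008G232700.1 and of Gorai.008G075600.1 were -0.000193 at 48 h, that of the same probe set of Gorai.008G232700.1 was -0.0887 at 24 h, and that of Gorai.009G087700.1 was -0.127 at 24 h. Where all 6 signals of a time were dim, the raised values differ only by the percentiles of the arrays. A turn there is not a reversal of the member. With dim probe sets left out, ethylene pathway probe sets called lower numbered 3 at 6 h and 5 at 24 h, in place of 6 and 8. Leaving out each of the 24 arrays in turn gave 4 to 7 members called lower in the damaged leaves of 6 h, the 4 without CBW replicate 3. It gave 5 to 18 that fell in undamaged leaves between 6 h and 12 h, 5 to 12 that rose between 12 h and 24 h, and, between 24 h and 48 h, 0 to 4 that rose and 0 to 5 that fell, the 5 without control replicate 3 at 24 h. Shares of all probe sets in the fits without 1 array are not given here. Whether the replicate numbers pair the samples was checked in 12 pairs of CBW and control arrays, whose deviations correlated between -0.165 and 0.516 and exceeded 0.1 in 6. All 3 did at 12 h, from 0.199 to 0.516, and not all did at the other times, and no label says what a number shares. With a replicate block, 44, 39, 49 and 51 members were called higher at the 4 times, and with the 12 h arrays alone, a fit added after seeing the data, the block gave 41 higher and 4 lower. Apart from members whose signals of a time were all raised to the percentile, the cause of the changed values was not tested. Signals under the 20th percentile limit the size of the differences of dim members.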
